A study of Mus musculus with 16 samples.

Results

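Glucose enters the hepatocyte, is phosphorylated and is carried down glycolysis to pyruvate by a short series of proteins. Measured here in the livers of obese mice were 8 genes of that series, of its control and of fructose entry. They were chosen by gene symbol, for their place in glucose or fructose entry, in the control of glucose phosphorylation and in glycolysis. Each was found as 1 row of the 55487 gene rows. All 8 lay above the filter on low values, a mean of at least 1 transcript per 1000000 (TPM), which left 11839 genes to be tested. The genes are the sugar transporter Slc2a2, the glucokinase regulator Gckr, the isomerase Gpi1, the phosphofructokinase Pfkl, its regulators Pfkfb1 and Pfkfb3, the pyruvate kinase Pklr and the fructokinase Khk. The gene of glucokinase itself is not among them. None of the 8 passed an adjusted p of 0.05 in any comparison once libraries were scaled to each other. The lowest adjusted p (limma) was 0.0978, for Pfkfb3 with G108 on the standard protein diet.

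The study sequenced liver RNA of 16 male C57BL6/J mice, with 1 library per mouse and 4 mice in each of 4 groups. G108 is a long-acting agonist of the glucagon receptor. It was given under the skin once a day at 2.5 nmol/kg for 22 days, or vehicle was given in its place. To ask how dietary protein bears on the liver's response to G108, each treatment was combined with a standard protein (SP) or a high protein (HP) high-fat diet, which gave the groups vehicle SP, G108 SP, vehicle HP and G108 HP. What all 4 groups shared was the strain, male sex, individual housing and obesity from a diet with 60 kcal% fat. No group stayed lean or ate a low-fat diet, so the vehicle mice are obese controls. Per the labels the high-fat diet began at 10 weeks of age and ran for 8 weeks, and the mice were culled on day 25 after a 4 h fast. The study's own methods give another age, another feeding time and another day of culling. The livers were sampled after a fast, so the levels below are those of fasted animals.

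Glucagon and insulin pull hepatic sugar metabolism in opposite directions. After a meal, glucose crosses the plasma membrane through the transporter encoded by Slc2a2, and glucokinase phosphorylates it. In the fasted liver the protein made from Gckr holds glucokinase inactive in the nucleus. Phosphofructokinase sets the pace of the next committed step, and fructose 2,6-bisphosphate, made and degraded by the Pfkfb enzymes, is its strongest activator. Glucagon acts through cyclic AMP and protein kinase A, which phosphorylates the enzymes made from Pfkfb1 and Pklr in liver and so slows glycolysis without a change in RNA. Sugar also acts on transcription, because the factor encoded by Mlxipl binds paired E boxes in the promoters of sugar-responsive genes, of which Pklr is the classical example. RNA levels alone were measured here, and not enzyme amount, phosphorylation or flux.

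The sequence best known for that control is the stretch just before the liver start of Pklr. It is shown because it holds both elements in 1 window, with the paired E box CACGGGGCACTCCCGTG first and an HNF1-type inverted repeat, GTTATACTTTAAC, second, both in capitals. The stretch is chr3:89136373-89136571 on the plus strand of GRCm38.p6, and the sequences are RefSeq's for that build. It stops short of the RefSeq start at position 89136623, because an annotated exon of Pklr begins right after its last base. Shorter stretches around the single E box of Khk (chr5:30921478-30921503, plus strand) and of Pfkfb3 (chr2:11502128-11502153, minus strand) are shown beside it, with CACGTG in capitals.
Pklr: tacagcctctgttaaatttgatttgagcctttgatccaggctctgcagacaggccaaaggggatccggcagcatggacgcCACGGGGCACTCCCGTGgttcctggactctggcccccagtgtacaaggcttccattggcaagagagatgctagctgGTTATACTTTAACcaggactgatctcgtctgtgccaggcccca
Khk: cgttccccgtCACGTGacaccgttaa
Pfkfb3: cccttctctcCACGTGaaagggggct
In Pklr the paired E box lies 170 to 154 bases before the RefSeq start at position 89136623, and the inverted repeat lies 94 to 82 bases before it. The E box of Khk lies 71 to 66 bases before the RefSeq start at position 30921559. That of Pfkfb3 lies 53 to 48 bases before the start at 11502090, which is 1 of its 2 windows. Both of these E boxes lie inside the annotated span of their gene, which begins further upstream. The same holds for the Pklr stretch, since the annotated span of Pklr begins at position 89136142.

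All 8 genes had a RefSeq promoter window, 13 windows in all since several genes have more than 1 start. In the 250 bases before each start, 4 motifs were searched on both strands. The paired E box, CACGNG and CNCGTG with 5 bases between them, was found in 13 of 32851 windows of all genes (0.0396%) and, among the 8 genes, in Pklr alone. The HNF1-type repeat, GTTA and TTAAC with 4 bases between them, was found in 56 windows (0.17%) and likewise in Pklr alone among the 8. The single E box CACGTG is common (6.02% of all windows) and was found in Khk and Pfkfb3, and it can overlap a paired box. The cyclic AMP response element TGACGTCA (1.55% of all windows) was found in 0 of the 13 windows. The letters of the paired box and of the repeat were set with the Pklr sequence in view, so its match to them is no finding, and a match in any gene describes letters and not binding.

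The 8 genes differ widely in level, which the TPM scale allows to be compared since it is per length of transcript. Mean TPM over the 16 libraries was 183 for Khk, 75.6 for Gckr, 55.6 for Pklr, 29.6 for Slc2a2, 19.3 for Gpi1, 7.24 for Pfkfb1, 3.46 for Pfkl and 1.12 for Pfkfb3. Khk had a higher mean TPM than 97.3% of the genes tested, and Pfkfb3 than 3.73% of them. Reads behind a value ran from 6132 to 12252 per library for Khk, but from 80 to 413 for Pfkfb3, whose values therefore carry the most counting error of the 8.

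Library totals recovered from the values, in units of 1000000 reads, were 33.4 to 45.03 in vehicle SP, 34.5 to 44.1 in vehicle HP, 27.8 to 35.9 in G108 SP and 30.5 to 36.5 in G108 HP. TPM is a share of a library, and that bears on every value here. Major urinary protein (Mup) transcripts took 42.6 to 49.7% of all TPM in vehicle SP and 18.3 to 23.0% in G108 SP, while mitochondrial transcripts took 21.0 to 37.3% in G108 HP and 13.8 to 24.0% in vehicle SP. TPM were therefore divided by a factor per library, the median of ratios over genes (0.681 to 1.54), and these scaled TPM are given below unless stated. All 8 hepatocyte markers reached a mean TPM of 1, but their summed scaled TPM was lower in G108 HP (20478 to 23838) than in vehicle HP (24030 to 27898) and G108 SP (24357 to 26794), with no overlap, while vehicle SP ranged from 22115 to 30688. None of the markers of neutrophils, lymphocytes, adipocytes, skeletal muscle and exocrine pancreas reached a mean TPM of 1. Summed red blood cell markers ranged from 656 to 919 in G108 SP, below the 986 to 2388 of G108 HP with no overlap, from 843 to 3094 in vehicle SP and from 997 to 1307 in vehicle HP. Summed endothelial markers were 15.5 to 18.4 in G108 SP, below the 19.9 to 23.2 of vehicle SP with no overlap. No marker of these 3 lists passed an adjusted p of 0.05 (limma) in any comparison, and their part in the results was not tested. In whole liver, fewer cells of a type and less RNA per cell cannot be told apart.

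**Figure D1:**
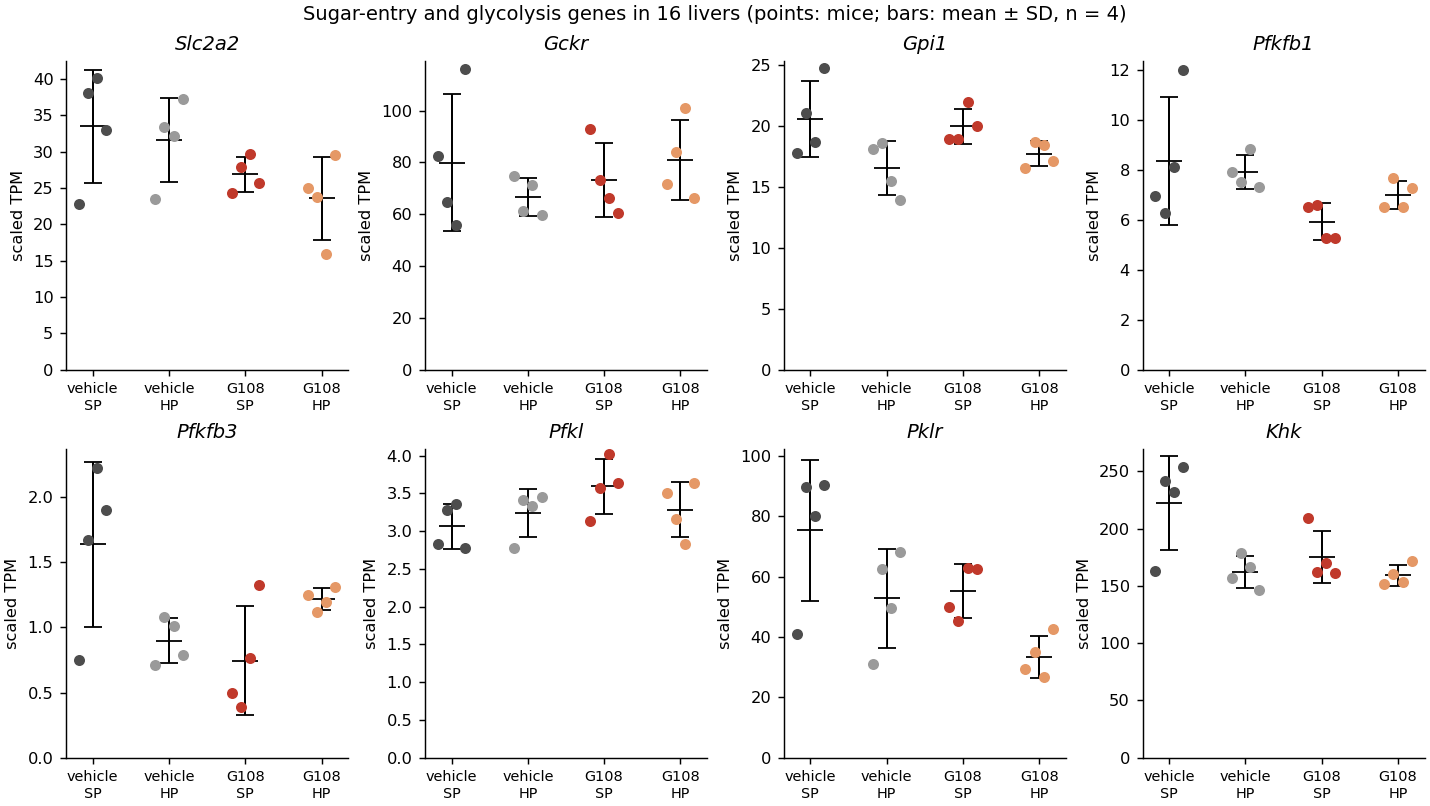
Scaled TPM of each gene (vertical axes, from 0) in the 4 groups, with 1 point per mouse and bars for the mean ± SD (n = 4). The groups overlap in most panels, and all 4 points of G108 HP lie below those of G108 SP for Pklr and above those of vehicle HP for Pfkfb3.

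Slc2a2 (chr3:28697903-28731359, plus strand, ENSMUSG00000027690) encodes GLUT2, the transporter through which glucose and fructose pass the hepatocyte membrane in both directions. Its level was lower with G108 on both diets, by amounts within the spread between mice. Scaled TPM in vehicle SP was 22.8, 38.0, 40.1 and 32.9 in mice 1 to 4, and in G108 SP it was 24.3, 27.9, 29.7 and 25.6. On HP it was 23.5, 33.4, 32.1 and 37.2 with vehicle and 24.9, 23.8, 15.9 and 29.5 with G108. Mouse 1 was the lowest of both vehicle groups. On SP it lay below all 4 G108 mice and on HP inside their range, so that neither pair of groups was separated. On SP the log2 fold change was -0.28 (SE 0.20, adjusted p = 0.457, limma), and on HP -0.42 (SE 0.20, 95% interval -0.84 to 0.00, adjusted p = 0.445). The lowest value of all belonged to G108 HP mouse 3, the library with the largest mitochondrial share, and without it the fold change on HP was -0.25. The summed hepatocyte markers were lower in G108 HP than in vehicle HP too, and their part in this value was not tested.

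Gckr (chr5:31297443-31327314, plus strand, ENSMUSG00000059434) encodes the protein that binds and restrains glucokinase when glucose is low. Its RNA showed no separation between groups on scaled TPM. In vehicle SP the 4 mice had 82.6, 64.9, 56.0 and 116, and in vehicle HP 74.8, 61.3, 71.3 and 59.7. With G108 the values were 93.1, 73.2, 66.2 and 60.6 on SP and 71.7, 84.0, 101 and 66.5 on HP. Vehicle SP held both the lowest and the highest level of the 16, and that range spanned every other group. Against vehicle, G108 gave a log2 fold change of -0.09 (SE 0.21, 95% interval -0.52 to 0.35) on SP and 0.26 (SE 0.21, -0.18 to 0.70) on HP, with adjusted p of 0.827 and 0.727 in limma. On SP it turned to 0.11 without vehicle SP mouse 4. With TPM as deposited, G108 lay above vehicle with no overlap on SP (88.8 to 109 against 49.8 to 79.0). The same held on HP (73.3 to 84.9 against 52.1 to 65.4), at 0.38 on the log2 scale (adjusted p = 0.287, limma). On that scale the median of all genes rose by 0.60 on SP and 0.09 on HP. Between diets with G108, HP lay below SP there with no overlap.

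Gpi1 (chr7:34201330-34230336, minus strand, ENSMUSG00000036427) encodes the isomerase that turns glucose 6-phosphate into fructose 6-phosphate. It was the gene closest to level with G108 on SP. The 4 values were 17.8, 21.1, 18.7 and 24.8 in vehicle SP, and 18.1, 18.6, 15.5 and 13.9 in vehicle HP. Under G108 they were 18.98, 18.96, 22.0 and 20.05 on SP and 16.6, 18.7, 18.5 and 17.1 on HP. All 4 mice of G108 HP lay below all 4 of G108 SP, though by a narrow margin between 18.7 and 18.96. That diet difference was -0.16 on the log2 scale (SE 0.11, adjusted p = 0.858, limma). With vehicle, HP was -0.30 against SP (SE 0.11, 95% interval -0.54 to -0.06, unadjusted p = 0.0180 and adjusted p = 0.832, limma). The change with G108 was -0.03 (95% interval -0.27 to 0.21) on SP and 0.10 (-0.14 to 0.34) on HP.

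Pfkfb1 (chrX:150588229-150643878, plus strand, ENSMUSG00000025271) encodes the liver form of the enzyme that both makes and degrades fructose 2,6-bisphosphate. Its level was lower with G108 on SP by the unadjusted test only. Scaled TPM was 6.96, 6.28, 8.12 and 12.01 in vehicle SP and 6.51, 6.61, 5.26 and 5.28 in G108 SP. On HP it was 7.92, 7.52, 8.84 and 7.32 with vehicle and 6.53, 7.66, 6.51 and 7.28 with G108. Mouse 4 of vehicle SP stood above the 15 other livers, while mouse 2 of that group lay inside the G108 SP range. On SP the fold change was -0.40 on the log2 scale (SE 0.15, 95% interval -0.72 to -0.09, unadjusted p = 0.0153, adjusted p = 0.177, limma), and -0.23 at its smallest when 1 library was left out. On HP it was -0.15 (SE 0.15, adjusted p = 0.793). The gene Apex2 on the opposite strand shares 123 exon bases with Pfkfb1, 3.06% of its exon length.

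Pfkfb3 (chr2:11471433-11554077, minus strand, ENSMUSG00000026773) encodes a form of the same enzyme with a strong bias towards making the activator, and it is the form known from proliferating and inflamed tissue. It showed the lowest adjusted p of the 8 and the only unadjusted p under 0.05 for a difference between diets in the response to G108. In vehicle SP scaled TPM was 0.751, 1.67, 2.22 and 1.90, against 0.493, 0.390, 0.768 and 1.33 in G108 SP. On HP the order was the other way, with 0.713, 1.08, 1.01 and 0.791 with vehicle and 1.25, 1.12, 1.20 and 1.31 with G108. On SP the groups overlapped only through vehicle mouse 1, which lay below G108 mice 3 and 4. On HP all 4 G108 mice lay above all 4 vehicle mice, with 1.12 against 1.08 as the nearest pair. With TPM as deposited these groups overlapped, at 1.01 to 1.62 with G108 and 0.594 to 1.15 with vehicle.

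The log2 fold change of Pfkfb3 was -0.59 on SP (SE 0.18, 95% interval -0.97 to -0.21, unadjusted p = 0.00463, adjusted p = 0.0978, limma) and 0.23 on HP (SE 0.18, adjusted p = 0.717). The interaction, the response on HP minus the response on SP, was 0.82 (SE 0.25, 95% interval 0.29 to 1.35). Its unadjusted p was 0.00521 and its adjusted p 0.575 (limma). A pseudocount of 1 is as large as these levels, so the scale understates the change, and voom on the recovered reads gave -1.13 on SP (SE 0.35, adjusted p = 0.0988) and 1.58 for the interaction (SE 0.49, adjusted p = 0.550). Leaving out either of 2 libraries brought the call on SP past the threshold. Without vehicle SP mouse 1 the fold change was -0.77 with an adjusted p of 0.00944 (limma), and without G108 SP mouse 4 it was -0.74 with an adjusted p of 0.0479 (limma). Other libraries left out weakened it, to -0.48 at its smallest and to an adjusted p of up to 0.259 (limma). On the vehicle arm alone, HP was -0.44 against SP (SE 0.18, unadjusted p = 0.0244, adjusted p = 0.832, limma), which is the difference the interaction also contains.

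Pfkl (chr10:77986947-78010083, minus strand, ENSMUSG00000020277) encodes the liver subunit of phosphofructokinase, the enzyme on which fructose 2,6-bisphosphate acts. Its level stayed between 2.78 and 4.02 in all 16 livers. Vehicle SP gave 2.83, 3.28, 3.36 and 2.78, and G108 SP gave 3.13, 3.58, 4.02 and 3.64. On HP the values were 2.78, 3.41, 3.34 and 3.45 with vehicle and 3.51, 3.16, 2.83 and 3.63 with G108. The 2 highest livers were both in G108 SP, yet mouse 1 of that group lay below 2 mice of vehicle SP. With G108 the log2 level changed by 0.18 on SP (SE 0.09, 95% interval -0.02 to 0.37, adjusted p = 0.318, limma) and by 0.01 on HP (SE 0.09, -0.18 to 0.21). Over the 16 libraries the log2 level of Pfkl ran with the library's own scale factor (Pearson r = 0.842), and that factor was highest in G108 SP. The part of the factor in the SP value was not tested.

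Pklr (chr3:89136142-89146784, plus strand, ENSMUSG00000041237) encodes the pyruvate kinase of liver and red cells, the last step of glycolysis. G108 HP had the lowest mean of the 4 groups. Scaled TPM was 41.1, 89.8, 80.0 and 90.4 in vehicle SP and 31.0, 62.5, 49.5 and 68.1 in vehicle HP. It was 49.9, 45.5, 62.9 and 62.6 in G108 SP and 29.5, 35.0, 26.8 and 42.6 in G108 HP. Every G108 HP liver lay below every G108 SP liver, whereas vehicle HP mouse 1, at 31.0, lay within the G108 HP range. Mean levels were 75.3 in vehicle SP, 55.2 in G108 SP, 52.8 in vehicle HP and 33.5 in G108 HP. The log2 fold change between diets under G108 was -0.71 (SE 0.27, 95% interval -1.29 to -0.14, unadjusted p = 0.0184, adjusted p = 0.847, limma) and between diets under vehicle -0.50 (SE 0.27, adjusted p = 0.832). In the comparisons of G108 HP with G108 SP and with vehicle HP the summed hepatocyte markers were also lower in G108 HP, and red blood cell markers, of a cell type that also expresses Pklr, were higher in G108 HP than in G108 SP. Their part in the Pklr values was not tested.

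G108 against vehicle gave -0.60 for Pklr on HP (SE 0.27, unadjusted p = 0.0407, adjusted p = 0.409, limma) and -0.39 on SP (SE 0.27, adjusted p = 0.442). The interaction was -0.21 with a 95% interval from -1.02 to 0.60, so a difference between the diets in the response was not detectable with this spread. In both vehicle groups mouse 1 was well below the other 3. Without vehicle HP mouse 1 the change on HP was -0.83, and without vehicle SP mouse 1 the change on SP was -0.65 (limma, adjusted p = 0.130 and 0.167). Other libraries left out weakened both changes, to -0.46 on HP and -0.28 on SP at their smallest. The adjusted p then reached up to 0.861 on HP and 0.737 on SP (limma). Pklr overlaps Hcn3, an ion channel gene on the opposite strand, over 711 exon bases (22.0% of the exon bases of Pklr). Hcn3 had a mean TPM of 23.3 and ran with Pklr over the 16 libraries (r = 0.867). Whether counting used strand is not given in the sources used here, so reads of the shared stretch cannot be told apart. Values are per gene and do not separate the liver start from the red cell start of Pklr.

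Khk (chr5:30921431-30931248, plus strand, ENSMUSG00000029162) encodes ketohexokinase, which phosphorylates fructose and lets it enter below the phosphofructokinase step. It was the most abundant of the 8. The highest livers were those of vehicle SP, with 163, 242, 232 and 254. The other 3 groups covered a common range, with 157, 179, 166 and 147 in vehicle HP, 209, 162, 170 and 161 in G108 SP and 151, 160, 153 and 172 in G108 HP. Mice 2 to 4 of vehicle SP lay above all 12 livers of the other groups, and mouse 1 lay among them. Khk changed with G108 by -0.33 on the log2 scale on SP (SE 0.14, 95% interval -0.62 to -0.04, unadjusted p = 0.0299, adjusted p = 0.232, limma) and -0.02 on HP (SE 0.14, -0.32 to 0.27). HP against SP with vehicle was -0.44 (SE 0.14, unadjusted p = 0.00611, adjusted p = 0.832). Without vehicle SP mouse 1 the change on SP was -0.47 with an adjusted p of 0.0350 (limma). Other libraries left out weakened it, to -0.26 at its smallest and to an adjusted p of up to 0.466 (limma). The interaction was 0.30 (SE 0.19, adjusted p = 0.577). The values do not separate the A and C isoforms.

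**Figure D2:**
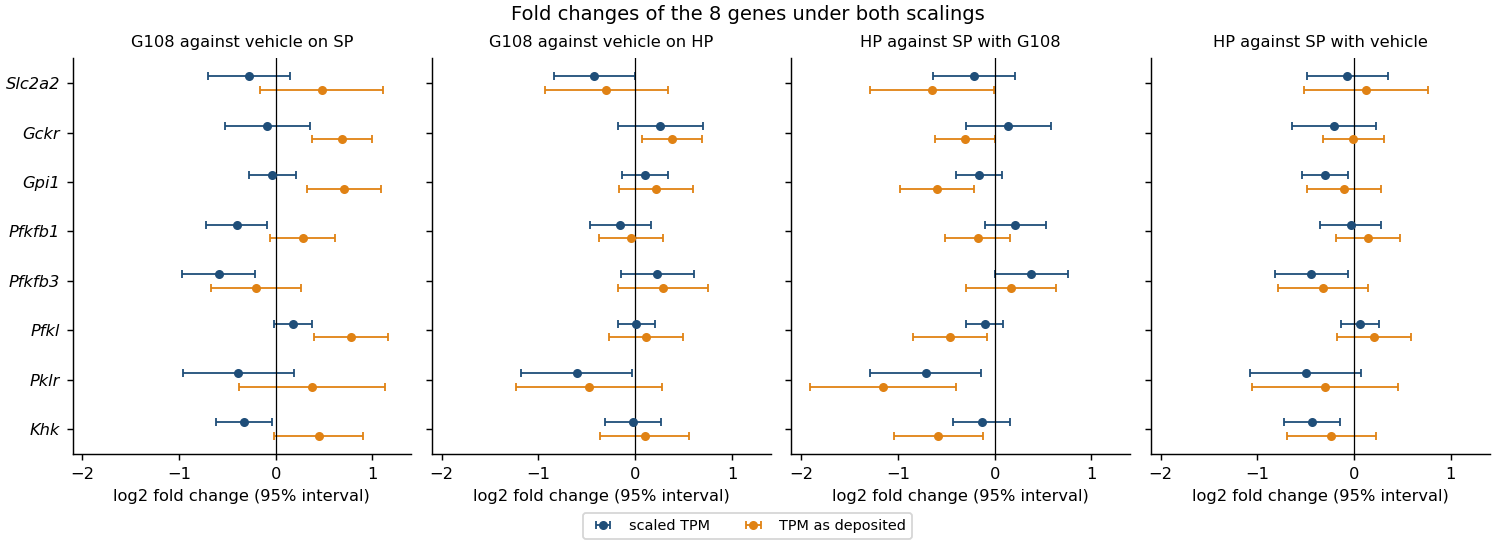
Log2 fold change of each gene with its 95% interval (horizontal axes) in 4 comparisons, from scaled TPM and from TPM as deposited. On SP, 7 of the 8 values lie below 0 when scaled and 7 above 0 as deposited, while on HP the 2 scalings differ little.

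Counted together, 0 of 8 genes were called with G108 on SP, where 2.72% of all genes tested were called, and 0 of 8 on HP, where 1.22% were. Between the diets, with G108 or with vehicle, and for the interaction, 0 of 8 were called and 0.0% of all genes. At an unadjusted p under 0.05 (limma) the counts were 3 of 8 on SP (Pfkfb1, Pfkfb3 and Khk, 17.7% of all genes), 1 on HP (Pklr, 11.3%), 1 between diets with G108 (Pklr, 5.4%), 3 between diets with vehicle (Gpi1, Pfkfb3 and Khk, 3.94%) and 1 for the interaction (Pfkfb3, 7.21%). voom on the recovered reads also called 0 of 8 in each comparison, against 2.96% of all genes on SP, 1.18% on HP and 0.0% in the others.

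On scaled TPM, groups that did not overlap numbered 0 of 8 for G108 on SP, where 9.21% of all genes were separated. On HP they numbered 1 of 8 (Pfkfb3, 8.15% of all genes). They numbered 2 of 8 between the diets with G108 (Gpi1 and Pklr, 4.27% of all genes) and 0 of 8 with vehicle (2.01%). The median log2 fold change over the 8 genes was -0.30 with G108 on SP, where the median over all genes was -0.01, and 7 of the 8 were below 0. With G108 on HP the median was -0.01, with 4 genes below 0 and 4 above. The comparison of G108 with vehicle on SP and that of the diets with vehicle share the vehicle SP libraries. Mouse 1 of that group, which was its lowest for Slc2a2, Gpi1, Pfkfb3, Pklr and Khk, enters both.

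The choice of scaling turned most directions on SP. With TPM as deposited, the median of all genes tested rose by 0.60 on the log2 scale with G108 on SP, and 77.6% of all genes were called, 77.0% higher. Against that, 3 of the 8 were called higher there, namely Gckr (0.68, adjusted p = 0.00182, limma), Gpi1 (0.71, adjusted p = 0.00384) and Pfkl (0.78, adjusted p = 0.00250), a smaller share than that of all genes. Pfkfb3 stayed below 0, at -0.21. In the other comparisons 0 of 8 were called with TPM as deposited (1.11% of all genes on HP and 0.0% elsewhere), and the shift of all genes was 0.09 on HP, -0.35 between diets with G108 and 0.14 between diets with vehicle. Relative to the shift of all genes, Slc2a2, Pfkfb3, Pfkfb1, Pklr and Khk lay on the low side under both scalings on SP.

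**Figure D3:**
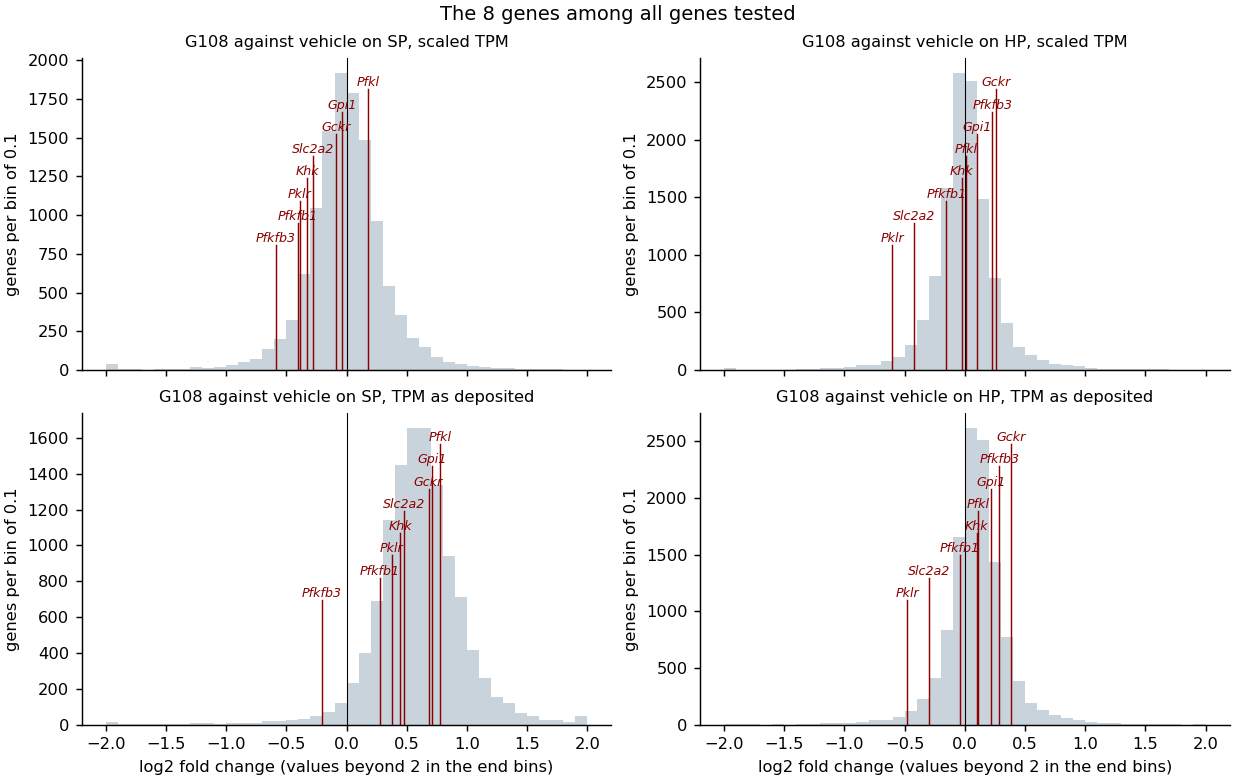
Number of genes per bin of 0.1 in log2 fold change (grey) for G108 against vehicle on each diet, with the 8 genes as red lines, from scaled TPM (top) and TPM as deposited (bottom). On SP as deposited the whole distribution is moved to the right by a median of 0.60, and the 8 genes move with it.

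A ratio of 2 genes within a library is the same under every scaling, and 3 such ratios are given as descriptions since they were chosen after the values were seen. The ratio of Pklr to Khk, the last glycolytic step against fructose entry, had a mean of 0.331 ± 0.053 in vehicle SP, 0.327 ± 0.111 in vehicle HP, 0.319 ± 0.071 in G108 SP and 0.209 ± 0.031 in G108 HP (SD, n = 4). In G108 HP it was 0.195, 0.219, 0.175 and 0.247 in mice 1 to 4. That range overlapped the 0.239 to 0.388 of G108 SP by 1 mouse on each side and the 0.198 to 0.464 of vehicle HP by mouse 1. Pklr to Gckr followed the same order, with means of 1.02, 0.818, 0.785 and 0.434. The ratio of Pfkfb3 to Pfkfb1, the 2 forms of the bifunctional enzyme, was 0.0901 to 0.144 in vehicle HP and 0.146 to 0.192 in G108 HP, with no overlap. On SP it ranged more widely, from 0.108 to 0.274 with vehicle and from 0.0590 to 0.251 with G108.

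**Figure D4:**
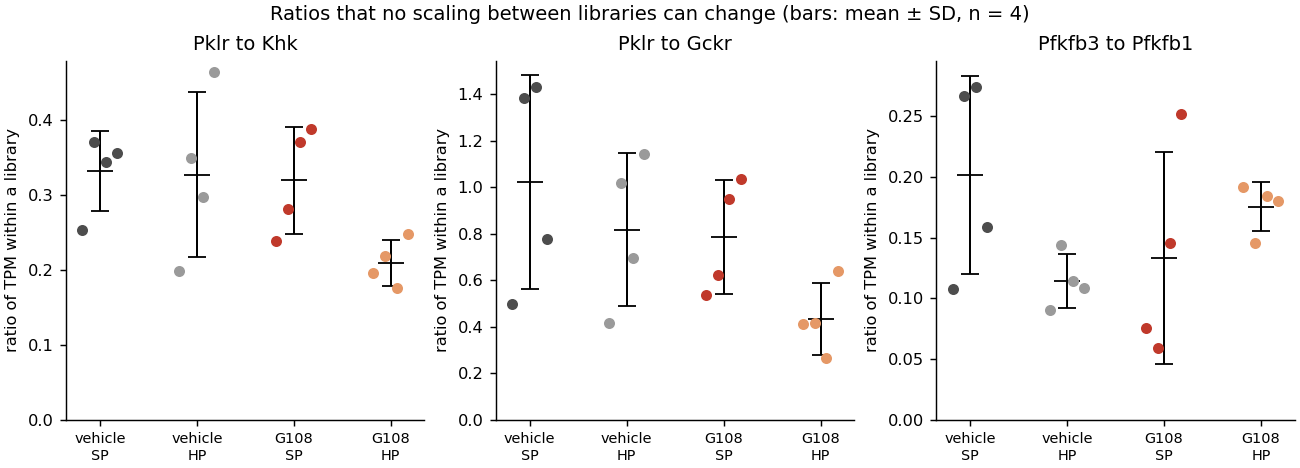
Ratio of TPM of 2 genes within a library (vertical axes, from 0) for 3 pairs of genes, with 1 point per mouse and bars for the mean ± SD (n = 4). G108 HP has the lowest mean of Pklr to Khk (0.209) and of Pklr to Gckr (0.434).

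How the 8 genes ran with each other was read over the 16 libraries as Pearson r of log2(scaled TPM + 1), a description since the libraries share groups and depth. Pklr and Slc2a2 had r = 0.833 (0.824 on deviations from the group means), and Pklr and Khk had r = 0.719 (0.566 on deviations). Pfkl and Slc2a2 had r = 0.409 over all libraries but 0.846 on deviations. Gckr and Pfkl ran against each other (r = -0.701, and -0.837 on deviations). The mitochondrial share of a library went with lower Slc2a2 (r = -0.743) and Pklr (r = -0.599) and with higher Gckr (r = 0.718), and Pfkfb1 was lower where the scale factor was higher (r = -0.706). The part of these library measures in the results was not tested.

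Among 5359 to 5360 other genes whose mean TPM reached 5, the gene most like Pklr was Pygl (r = 0.906), which encodes the liver glycogen phosphorylase, and the next B4galnt1 (r = 0.901). Slc2a2 was most like Slc27a2 (r = 0.909), which encodes a fatty acid transporter and acyl-CoA synthetase, and Pcsk6 (r = 0.903). For Khk the closest were Hcn3 (r = 0.852) and Wdr18 (r = 0.833), and for Gckr Fbrsl1 (r = 0.964) and Lrrc45 (r = 0.963). Pfkfb3 was most like Tsku (r = 0.800), which encodes a secreted protein of liver, and Ppp1r3b (r = 0.779), which encodes the subunit that targets protein phosphatase 1 to glycogen. Pfkfb1 was most like Gm43401 and Idh3g (both r = 0.889), and Pfkl like Cops7a (r = 0.937) and Trap1 (r = 0.928). Slc6a13 was among the 2 genes closest to Gpi1 (r = 0.828).

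The other genes of sugar metabolism were read from 5 lists of 60 genes in all, 46 of which passed the filter. Of these, 0 were called in any comparison after scaling. At an unadjusted p under 0.05 (limma) there were 13 on SP, 9 higher and 4 lower, where 17.7% of all genes passed, and 6 on HP, 4 higher and 2 lower, where 11.3% did. The median of the 46 was 0.01 on the log2 scale on SP, and -0.05 on HP. With TPM as deposited 38 of the 46 were called higher on SP, where 77.0% of all genes were. The 14 genes below the filter included the other hexokinases Hk1, Hk2, Hk3 and Hkdc1, the platelet phosphofructokinase Pfkp, Pfkfb4 and the transporters Slc2a3 and Slc2a4, which are known mainly from other tissues.

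By list, the 16 further enzymes of glycolysis that were tested had 6 genes higher and 1 lower with G108 on SP by the unadjusted test, and 3 higher and 0 lower on HP, beside the same 17.7% and 11.3% of all genes. Of these, Gapdh, the abundant dehydrogenase, had a log2 fold change of -0.05 on SP and 0.21 on HP (adjusted p = 0.806 and 0.538, limma). The other tested lists held 6 genes of fructose use (2 higher on SP, 1 lower on HP), 6 sugar transporters (1 higher on each diet), 14 sugar-responsive regulators (1 higher and 2 lower on SP, 1 lower on HP) and 6 genes of the pentose phosphate branch (1 lower on SP, 0 on HP). A gene on more than 1 list is counted in each, and the shares of all genes are the same for these lists. The most abundant genes of these lists had small changes, for example Sord, which makes fructose from sorbitol (-0.01 on SP, -0.33 on HP), and Slc37a4, the carrier of glucose 6-phosphate into the endoplasmic reticulum (-0.21 and -0.28). Slc2a9, a urate and fructose transporter, gave 0.16 and -0.37, Srebf1, the insulin-responsive regulator of lipogenesis, -0.20 and 0.14, Taldo1 -0.22 and -0.16, and Pgls -0.04 and 0.10. None of these passed after adjustment.

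Chosen after their values were seen, 4 further genes bear on the 8 above. Pfkfb2, the heart and kidney form of the bifunctional enzyme, had a mean scaled TPM of 2.27 ± 0.28 in vehicle SP and 3.38 ± 0.52 in G108 SP, and of 2.23 ± 0.47 in vehicle HP and 3.79 ± 0.74 in G108 HP (SD, n = 4). The groups did not overlap on either diet, with 1.96 to 2.57 against 2.62 to 3.83 on SP and 1.77 to 2.82 against 3.01 to 4.74 on HP. Its log2 fold change was 0.57 on HP (SE 0.13, adjusted p = 0.0503, limma), just short of the threshold, and 0.42 on SP (SE 0.13, adjusted p = 0.114). voom on the recovered reads put it past the threshold on HP (0.76, adjusted p = 0.0402). Pfkfb2 was thus higher in value with G108 on both diets, whereas Pfkfb1 and Pfkfb3 were lower in value on SP on this scale. Slc2a1, the transporter of most other tissues, gave 0.40 on SP (SE 0.12, adjusted p = 0.0993) and 0.41 on HP (SE 0.12, adjusted p = 0.138). With TPM as deposited both kept their direction on both diets. On SP, where 77.6% of all genes passed on that scale, Pfkfb2 was at 1.00 (adjusted p = 0.00105, limma) and Slc2a1 at 0.95 (adjusted p = 0.000357), and on HP they were at 0.65 (adjusted p = 0.131) and 0.49 (adjusted p = 0.126).

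Mlxipl encodes ChREBP, the factor that binds the paired E box printed above for Pklr. Its scaled TPM was 87.3 to 239 in vehicle SP and 61.2 to 106 in G108 SP, a log2 fold change of -0.82 (SE 0.28, adjusted p = 0.148, limma), and -0.15 on HP (SE 0.28, adjusted p = 0.900). Txnip, a sugar-responsive gene whose product restrains glucose uptake, was at 11.3 to 15.1 in vehicle SP and 6.38 to 9.42 in G108 SP, and at 9.01 to 20.6 in vehicle HP and 6.32 to 8.25 in G108 HP. Its groups did not overlap on either diet on this scale, and its fold changes were -0.62 (SE 0.20, adjusted p = 0.129) and -0.65 (SE 0.20, adjusted p = 0.165). Both genes depended on the scaling on SP. With TPM as deposited Mlxipl was at -0.05 there, and Txnip at 0.085 on SP and -0.54 on HP, with groups that overlapped on both diets. On the scaled TPM, Pklr was at -0.39 on SP and -0.60 on HP, and Khk at -0.33 and -0.02. Whether the level of Mlxipl bears on these values was not tested.

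**Figure D5:**
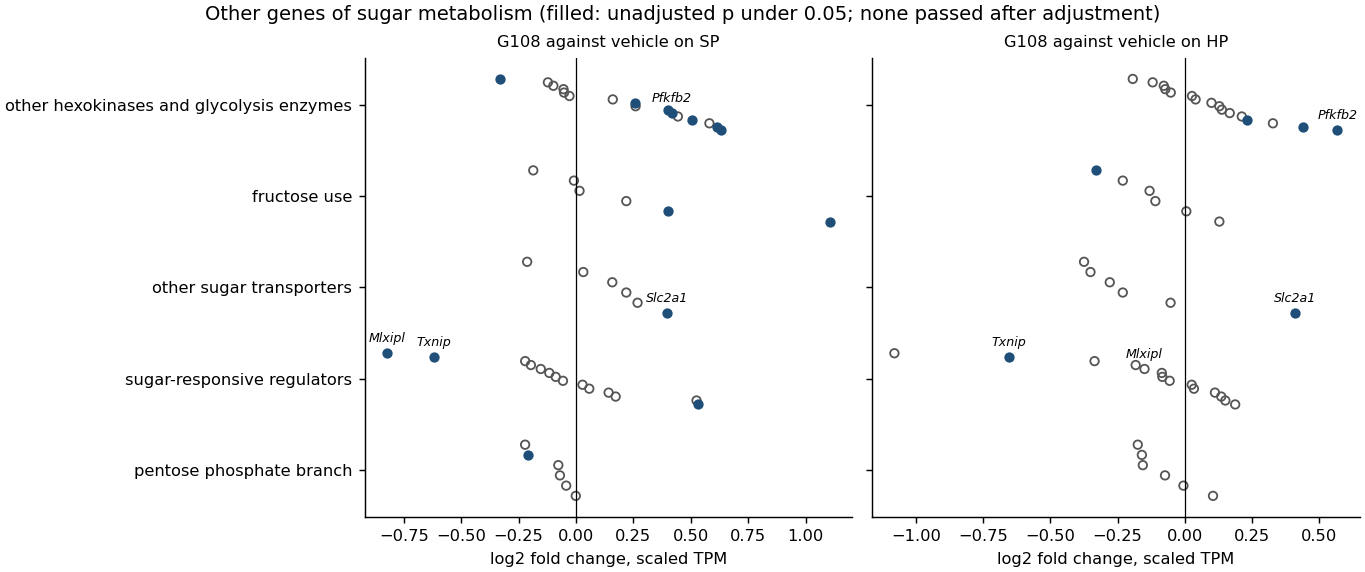
Log2 fold change with G108 (horizontal axes) of 46 other genes of sugar metabolism by list, on SP and on HP, with filled points for an unadjusted p under 0.05. No point passed after adjustment, and the labelled points are the 4 genes named with their values.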

How the data were processed

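Liver RNA of 16 mice was sequenced, with 1 library per mouse. Per the labels and the study's methods, the authors checked reads with FastQC 0.11.8, aligned them to GRCm38 with HISAT2 2.0.5, counted them per gene with featureCounts, and ran DESeq2 1.36.0. The values deposited by the authors are TPM, made from read counts and exon lengths, in 1 table whose 16 columns were all used. Each library sums to the same total, so TPM move when a few abundant genes move. TPM were therefore divided by median-of-ratios factors from 11591 genes.

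The 11839 genes whose mean TPM reached 1 were compared on log2(scaled TPM + 1) in limma 3.58.1 (R 4.3.3), with 1 mean per group over all 16 libraries, a trend in the variance and Benjamini-Hochberg adjustment over all 11839 genes. Calls were made at an adjusted p under 0.05. Symbols, positions and exon lengths came from GENCODE (GRCm38), in which 55141 identifiers had a symbol. Promoter windows came from RefSeq.

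Depth was recovered from low values, of which 98.8% of 138214 lay within 0.02 of a whole read (values of up to 20 reads), and voom on those reads was added as an alternative after the data were seen. No nonzero value was identical between any 2 libraries, and r within groups was 0.925 to 0.990, so all 16 were kept as replicates.

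The model was tested on simulated data for G108 against vehicle on SP, in which 200 of 11839 genes differed by 1 on the log2 scale. It called 80.5% of them, and 5.85% of its 171 calls were wrong. That difference is larger than any fold change of the 8 genes on scaled TPM. The simulated noise was independent between genes, with no shift in library composition. The share called therefore does not give the power for changes of the size seen in the 8 genes. Other alternatives were TPM as deposited, a pseudocount of 0.1, no filter, a mean TPM of at least 5, TPM rescaled over genes outside the mitochondrial genome and the Mup family, a replicate block by mouse number, a fit of the compared groups alone, and each library left out. Named genes were the 8 members, per list the called genes or else the 2 of highest mean TPM, and per member the 2 genes of highest r. Values of 2 genes that rule picks are not reported here. The members and lists were chosen with earlier results of these data known.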

Additional observations from a re-analysis of the deposited data

Results flagged for a closer look

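Within groups of 4 mice, 1 value stood apart from the rest of its group. Pfkl in vehicle HP mouse 1 was at 2.78 scaled TPM, where the 3 other mice of the group lay between 3.34 and 3.45. The gap was 0.832 of the range of the group, just over the limit that Dixon's test sets for 4 samples. Of 32 groups examined (8 genes in 4 groups) this was the 1 past that limit, and chance gives about 1 in 20. Without that mouse the log2 fold change of Pfkl with G108 on HP was -0.04 in place of 0.01.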

How the results depend on the processing

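Under the alternatives, 906 of 942 values of the 40 log2 fold changes (8 genes, 5 contrasts) kept their direction and side of the threshold. Another 4 kept their direction and passed the threshold newly, 0 lost it, and 32, from 18 of the fold changes, changed sign. Part of this agreement was fixed in advance. Changed filters, the replicate block, a fit of the compared groups alone and libraries left out of other groups cannot move a fold change. With 0 of the 8 genes called to begin with, no call could be lost. Among the 32 that changed sign, Gckr and Gpi1 on SP with TPM as deposited also passed the threshold (adjusted p = 0.00182 and 0.00384, limma). With TPM as deposited, on SP, Slc2a2 became 0.47, Gckr 0.68, Gpi1 0.71, Pfkfb1 0.28, Pklr 0.37 and Khk 0.44, and on HP Khk became 0.10. Between diets with G108, Gckr became -0.30 and Pfkfb1 -0.18, and with vehicle Slc2a2 became 0.12 and Pfkfb1 0.14. The interactions of Gckr, Gpi1, Pfkfb1 and Khk became -0.30, -0.49, -0.32 and -0.35. With TPM rescaled outside mitochondrial and Mup genes, Gpi1 on SP became 0.027, Pfkl on HP -0.047, Gckr between diets with G108 -0.0074 and the interaction of Gpi1 -6.0e-04. Leaving out each library in turn, fold changes that crossed 0 ranged on SP from -0.24 to 0.11 (Gckr) and -0.10 to 0.054 (Gpi1), on HP from -0.071 to 0.024 (Khk) and -0.043 to 0.065 (Pfkl), between diets with vehicle from -0.24 to 0.061 (Slc2a2) and -0.14 to 0.14 (Pfkfb1), and for the interaction from -0.27 to 0.025 (Slc2a2) and -0.44 to 0.051 (Pklr). The count of the 8 genes called on SP was 3 with TPM as deposited and ranged from 0 to 2 without 1 library (2 without vehicle SP mouse 1, 1 without G108 SP mouse 4). Of the 46 other genes, 38 were called on SP with TPM as deposited and 0 to 1 without 1 library, and on HP 1 was called with a pseudocount of 0.1, 1 with voom and 0 to 1 without 1 library. That gene was Pfkfb2, except without vehicle HP mouse 1, where it was Aldoa, and Txnip was the 1 called on SP without vehicle HP mouse 4. Over all genes, calls on SP and HP went from 322 and 145 to 233 and 43 with no filter, 219 and 77 at a mean TPM of at least 5, 103 and 52 with only the groups compared, and 9185 and 132 with TPM as deposited. They ranged from 158 to 471 and from 17 to 210 without 1 library.

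Mouse numbers did not pair the mice. Deviations from the group means had r of -0.426 to 0.443 between mice of the same number, and the labels give the numbers no shared litter or day. With the replicate block 0 of the 8 genes and 0 of the 46 others were called in each contrast, and calls over all genes were 213 on SP and 35 on HP. Depth limits Pfkfb3 most, at 80 to 413 reads per library.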
